A study of Mus musculus with 20 samples.

Results

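The collagen genes are the genes whose symbol is Col, a number, the letter a and a second number, such as Col1a1. A probe set, the group of array probes that reports on a gene, was taken for each symbol, and where a symbol had 2 the probe set with the higher mean over the 20 arrays was used. This gave 44 genes of 19938 genes with a symbol of their own, and all 44 were among the 15272 genes kept after a filter on low values. They were grouped into 11 fibrillar collagens, 6 basement membrane collagens, 9 FACIT collagens and 18 others. In all, 42 of the 44 lay over the 40th percentile of their array on each of the 20 arrays. The exceptions were Col19a1 and Col28a1.

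RNA was measured in 4 cell lines, each sampled at 0, 24, 48, 72 and 96 h after treatment with 4-hydroxytamoxifen (h pHT), which was given at 50 nM for 4 h. The lines were iMEFs with the conditional Ubf fl/fl gene, iMEFs with the Ubf wt/wt gene, and MEFs of the same 2 genotypes. All 4 lines carried ER-Cre+/+, the hormone-dependent recombinase that 4-HT activates, and all were treated with the drug, so that the Ubf wt/wt lines controlled for both. MEFs are primary mouse embryo fibroblasts, here from E14.5 embryos, and iMEFs are MEFs immortalized by transfection of the SV40 Tt antigens. Ubf, whose symbol is Ubtf, encodes an RNA polymerase I transcription factor that the rRNA genes require. There was 1 array for each line and time and 1 line for each genotype and cell type. The p-values therefore rest on the scatter between times and lines and not on replicate cultures, and the number of arrays limits the precision. Levels are given as log2 signal, so that a difference of 1 is a 2-fold difference, and levels of different genes were not compared because their probes differ.

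Collagens are trimers of chains that wind into a triple helix. The fibrillar types assemble into the load-bearing fibrils of connective tissue. Type IV collagen forms the sheet of basement membranes, and FACIT collagens sit on the surface of fibrils. Among the others, type VI forms beaded filaments around cells, types VIII and X form hexagonal lattices, and several types are anchored in the cell membrane or carry heparan sulphate. Fibroblasts are a main source of types I, III, V and VI.

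The arrays were first checked against their labels. Of 13 fibroblast markers, 10 lay over the 40th percentile on all 20 arrays, and their mean level ran from 9.21 to 9.90 on iMEF arrays and from 11.5 to 11.9 on MEF arrays. In iMEFs minus MEFs, 11 of the 13 passed the test as lower and 0 as higher. The mean level of 18 macrophage markers was 6.16 to 6.56 in iMEFs and 8.51 to 9.84 in MEFs, and all 18 were lower in iMEFs. Of these, Adgre1, Cd53, Lyz2, Mrc1 and Ptprc lay over the 40th percentile on 0 iMEF arrays, as did Fap and Lum among the fibroblast markers. Such genes passed the filter only through the MEF arrays, where they are high, so their calls as lower are no independent support. In bulk RNA, fewer cells of a type and less RNA per cell cannot be told apart, and the part of other cells in the results that follow was not tested. The Ubtf probe set lay between 10.01 and 10.62 in Ubf fl/fl iMEFs and between 9.49 and 10.45 in Ubf wt/wt iMEFs. It lay between 10.53 and 10.65 in Ubf fl/fl MEFs and between 10.22 and 10.75 in Ubf wt/wt MEFs. Whether its probes lie within the deleted exons is not given in the sources used here, so it checks no label.

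The largest differences among the collagen genes lay between the cell types. In iMEFs minus MEFs, tested by limma on the 4 line means, 16 of the 44 genes were lower, 12 were higher and 16 did not pass an adjusted p of 0.05. Of all 15272 genes, 66.3% passed this test, 31.2% as lower and 35.1% as higher. The median over the 44 genes was 0.10 on the log2 scale and that over all genes was 0.12. The lower genes reached -3.54, while the higher genes lay between 0.28 and 0.53. Of 7 epithelial markers 4 were also called higher and 0 lower, with a median of 0.35. Of 6 endothelial markers 3 were higher and 2 lower, of 6 chondrocyte markers 2 and 1, and of 7 skeletal muscle markers 2 and 1. Of 6 neural markers 1 was higher and 1 lower, and of 6 smooth muscle and myofibroblast markers 1 and 2. The part of any of these cells in the higher collagen genes was not tested. For 11 collagen genes all 10 iMEF arrays lay below all 10 MEF arrays, where this held for 14.6% of all genes. For 0 collagen genes did all iMEF arrays lie above, where this held for 11% of all genes, and the arrays of the cell types did not overlap in either direction for 25.6% of all genes.

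**Figure D1:**
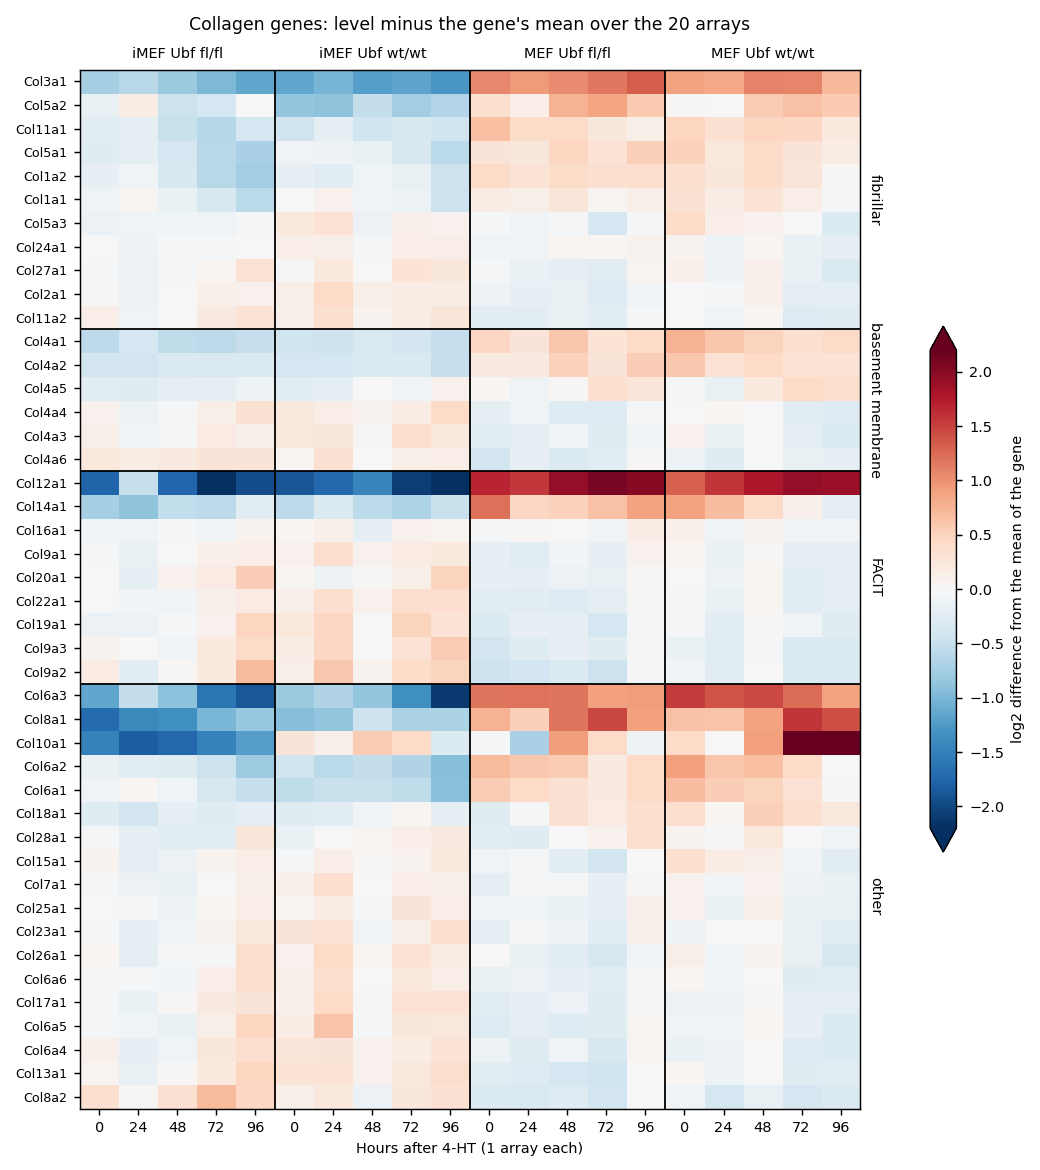
Level of each of the 44 collagen genes (rows, grouped by class and ordered by iMEFs minus MEFs) on each of the 20 arrays (columns, hours post 4-HT in each line), shown as the log2 difference from the gene's own mean. Col12a1, Col6a3, Col3a1 and Col8a1 are blue in both iMEF lines and red in both MEF lines, and Col10a1 is lowest in Ubf fl/fl iMEFs and highest in Ubf wt/wt MEFs at 72 and 96 h.

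Of the 11 fibrillar genes, 6 were lower in iMEFs, 1 was higher and 4 did not pass. Col3a1, the chain of type III collagen, had the lowest level of 8.51, a median of 8.72 and the highest level of 9.19 in iMEFs, against 10.51, 10.85 and 11.13 in MEFs. The arrays of the cell types did not overlap, and the difference was -2.02 ± 0.14 (SE, 4.07-fold lower, limma adjusted p = 0.000917). It was -1.96 between the Ubf fl/fl lines and -2.08 between the Ubf wt/wt lines. Col5a2, a chain of type V collagen, which sets fibril diameter, had levels of 9.04, 9.43 and 10.08 (lowest, median and highest) in iMEFs and 9.92, 10.48 and 10.78 in MEFs. The ranges overlapped, and the difference of -0.90 ± 0.21 passed (adjusted p = 0.0164).

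Col11a1, a minor fibril chain best known from cartilage, had levels of 7.39, 7.61 and 7.81 in iMEFs and 8.15, 8.44 and 8.69 in MEFs (lowest, median and highest). It was lower in iMEFs, at -0.77 ± 0.08 (adjusted p = 0.00188) with no overlap between the arrays. Both chains of type I collagen were also lower. Col1a2 was lower in iMEFs, at -0.63 ± 0.10 (adjusted p = 0.00623) and Col1a1 at -0.34 ± 0.09 (adjusted p = 0.0263). Col1a1 ran from 12.03 to 12.72 in iMEFs and from 12.60 to 12.95 in MEFs. Col5a1 gave -0.69 ± 0.10 (adjusted p = 0.00418). Col11a2 was the only fibrillar gene called higher, at 0.30 ± 0.09. Col2a1, Col5a3, Col24a1 and Col27a1 lay between 0.03 and 0.23 and did not pass.

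The calls of the type IV genes were split. Its chains are encoded in pairs of neighbouring genes, and the pair for the most widespread trimer, Col4a1 and Col4a2, was lower in iMEFs. Col4a1 had levels of 8.35, 8.45 and 8.60 in iMEFs (lowest, median and highest) and 9.22, 9.37 and 9.70 in MEFs, a difference of -0.95 ± 0.09 (adjusted p = 0.00161). Col4a2 had levels of 8.75, 8.91 and 8.95 in iMEFs and 9.46, 9.57 and 9.85 in MEFs, a difference of -0.74 ± 0.08 (adjusted p = 0.00213). Neither gene's iMEF arrays overlapped its MEF arrays. Col4a3 and Col4a4, known from kidney glomeruli, were higher by 0.29 ± 0.10 and 0.28 ± 0.09. Col4a3 ran from 6.73 to 7.15 in iMEFs and from 6.48 to 6.88 in MEFs, and Col4a4 from 6.90 to 7.44 and from 6.74 to 7.06. Col4a6 had levels of 6.62, 6.80 and 6.95 in iMEFs and 6.22, 6.42 and 6.65 in MEFs, with a small overlap. It and its X-linked neighbour Col4a5 had opposite signs, with Col4a6 higher by 0.37 ± 0.09 (adjusted p = 0.0201) and Col4a5 lower, at -0.29 ± 0.09 (adjusted p = 0.0381). All 6 passed the test, 3 in each direction, and their median was 0.00. The 40th percentile of an array ran from 6.16 to 6.42. Whether the low signals of Col4a3, Col4a4 and Col4a6 are expression was not tested. The calls of Col4a5 and Col4a3 were lost in 13 alternatives each and that of Col4a4 in 10, of 35 for Col4a5 and 34 for the others.

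Col4a1 and Col4a2 are divergent neighbours on chromosome 8 whose starts lie within 22 bases, a pair known to share a promoter region. The RefSeq table of promoters (GRCm38.p6), which gives 250 bases before and 50 bases after each start, held 35 of the 44 collagen genes. The windows of this pair are shown because both genes were lower in iMEFs by similar amounts. They cover chr8:11312777-11313076 on the minus strand for Col4a1 and chr8:11312555-11312854 on the plus strand for Col4a2. The capitals mark the 78 bases that lie in both windows, read from opposite strands.
Col4a1: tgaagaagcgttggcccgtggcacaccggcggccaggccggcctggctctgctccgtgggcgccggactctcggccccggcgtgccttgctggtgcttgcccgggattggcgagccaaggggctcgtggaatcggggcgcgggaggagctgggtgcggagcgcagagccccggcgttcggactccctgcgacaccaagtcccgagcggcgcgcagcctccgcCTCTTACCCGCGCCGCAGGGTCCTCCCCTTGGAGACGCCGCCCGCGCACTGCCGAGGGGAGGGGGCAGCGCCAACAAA
Col4a2: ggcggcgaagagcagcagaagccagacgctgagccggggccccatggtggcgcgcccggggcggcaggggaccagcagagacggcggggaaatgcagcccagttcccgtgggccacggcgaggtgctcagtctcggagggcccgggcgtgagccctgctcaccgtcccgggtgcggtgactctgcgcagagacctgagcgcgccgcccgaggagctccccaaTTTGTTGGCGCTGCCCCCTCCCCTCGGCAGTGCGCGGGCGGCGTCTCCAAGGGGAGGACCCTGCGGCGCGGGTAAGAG
The shared stretch is 73.1% G and C, against a median of 52.7% over the windows of all genes, and it holds GGGCGG, the core of the GC box. Searched on both strands, GGGCGG occurred in 23 of 38 collagen windows (60.5%, some genes have 2 windows) and in 35.7% of all 32851 windows. It was in 10 of 14 windows of genes lower in iMEFs and in 6 of 10 windows of genes higher in iMEFs. The table held 12 of the 16 lower genes and 10 of the 12 higher genes. Most collagen windows lay above the median in G and C, which ran from 37.7% for Col3a1 to 75% for Col5a1. The windows were not matched for G and C, the only letters in GGGCGG, so its share does not set collagen genes apart. CCAAT occurred in 34.2% of collagen windows and 37.4% of all, TATAAA in 13.2% and 13.6%, and TGANTCA in 2.63% and 7.81%. None of these motifs contains another. Among the genes with the largest differences, the Col3a1 window holds TATAAA, the Col8a1 window GGGCGG, and the Col6a3 window no match. A match is a run of letters and not a measured site.

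FACIT collagens held the largest difference of all 44 genes. Col12a1, which encodes a fibril-associated chain found in dense connective tissue, had levels of 8.40, 8.91 and 10.22 in iMEFs (lowest, median and highest) and 12.02, 12.56 and 12.82 in MEFs. The difference was -3.54 ± 0.12 (11.7-fold lower, 95% interval -3.85 to -3.23, adjusted p = 0.000641). It was -3.51 between the Ubf fl/fl lines and -3.58 between the Ubf wt/wt lines, and the arrays did not overlap. Col14a1, whose product also binds fibrils, had levels of 6.62, 6.93 and 7.27 in iMEFs and 7.29, 8.08 and 8.72 in MEFs. It was lower in iMEFs, at -1.12 ± 0.14 (adjusted p = 0.00301). Its highest iMEF array and its lowest MEF array, both taken at 96 h, lay next to each other.

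Col9a2 and Col9a3, which encode chains of the cartilage type IX collagen, were higher in iMEFs, though not with the 0 and 24 h arrays alone. Col9a2 had levels of 7.92, 8.35 and 8.85 in iMEFs and 7.67, 7.84 and 8.16 in MEFs, a difference of 0.52 ± 0.11 (adjusted p = 0.0130). Col9a3 had levels of 8.41, 8.65 and 9.02 in iMEFs and 8.07, 8.21 and 8.50 in MEFs, a difference of 0.43 ± 0.10 (adjusted p = 0.0161). The arrays of the cell types overlapped for both. Col19a1 was also called higher, at 0.35 ± 0.12, and it lay over the 40th percentile on 4 and 5 of 5 arrays of the iMEF lines and on 2 and 3 of 5 arrays of the MEF lines. Col9a1, Col16a1, Col20a1 and Col22a1 did not pass, with values from -0.01 to 0.30.

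**Figure D2:**
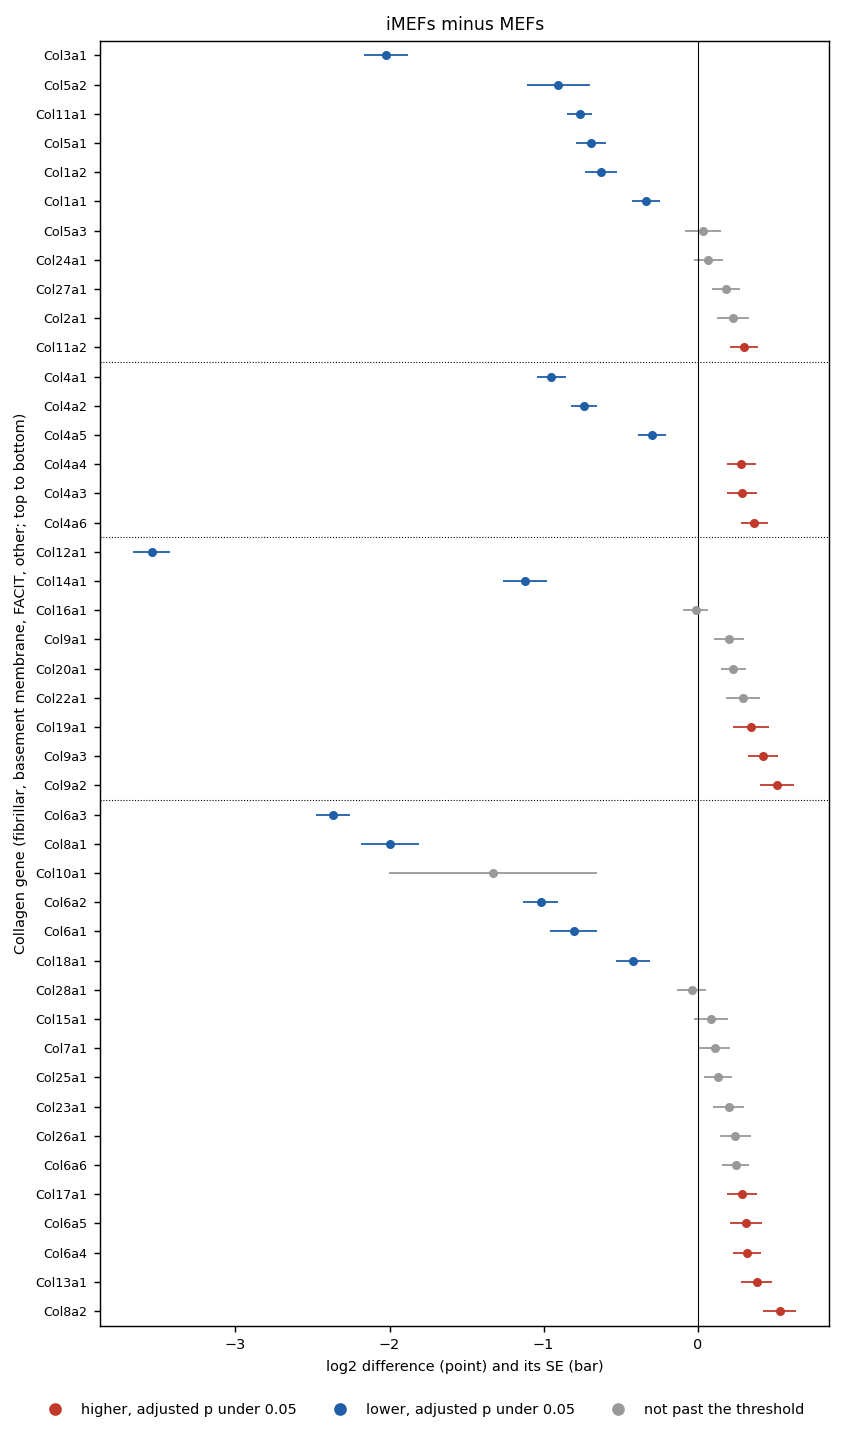
Difference between iMEFs and MEFs in log2 level for each collagen gene (points) with its standard error (bars), by class from top to bottom. Blue points are 16 genes lower in iMEFs, down to Col12a1 at -3.54, and red points are 12 genes higher in iMEFs, none above 0.53. Grey points did not pass.

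Of the 18 other collagens, 5 were lower, 5 higher and 8 not called. The chains of type VI that make up its common trimer were all lower. Col6a3 had levels of 7.74, 8.82 and 9.33 in iMEFs (lowest, median and highest) and 10.73, 11.03 and 11.38 in MEFs, a difference of -2.37 ± 0.11 (5.16-fold lower, adjusted p = 0.000686). Its partners Col6a2 and Col6a1, neighbours on chromosome 10, gave -1.02 ± 0.11 (adjusted p = 0.00216) and -0.81 ± 0.15 (adjusted p = 0.00948). The cell types did not overlap for Col6a3 and Col6a2, and for Col6a1 the highest iMEF array, at 10.73, lay just above the lowest MEF array, at 10.71. The later-described type VI chains Col6a4 and Col6a5 were higher by 0.32 ± 0.09 and 0.31 ± 0.10, and Col6a6 gave 0.25 ± 0.09 without passing. A second probe set for Col6a5 gave 0.04, and the mean of both did not pass.

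Col8a1, a short chain of subendothelial and corneal matrix, had levels of 8.76, 9.55 and 10.00 in iMEFs and 10.98, 11.36 and 12.02 in MEFs. It was lower in iMEFs, at -2.0 ± 0.19 (3.99-fold, adjusted p = 0.00149) with no overlap. Its partner Col8a2 had levels of 6.97, 7.39 and 7.80 in iMEFs and 6.68, 6.79 and 7.10 in MEFs and was higher, by 0.53 ± 0.11 (adjusted p = 0.0111). The 2 type VIII genes thus had opposite signs, and whether the low signal of Col8a2 is expression was not tested. Of the genes for membrane collagens, Col13a1 had levels of 7.49, 7.88 and 8.13 in iMEFs and 7.22, 7.41 and 7.70 in MEFs (0.38 ± 0.10, adjusted p = 0.0260). Col17a1, from the hemidesmosome of epithelia, was higher by 0.29 ± 0.10 (adjusted p = 0.0498), a call lost in 14 of 34 alternatives. Col18a1, the source of endostatin, was lower, at -0.42 ± 0.11 (adjusted p = 0.0238). Col7a1, Col15a1, Col23a1, Col25a1, Col26a1 and Col28a1 gave -0.04 to 0.24 and did not pass.

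Col10a1, the type X chain of hypertrophic cartilage, had the widest range of all, 4.43 over the 20 arrays, and was not called between the cell types (-1.33 ± 0.68, adjusted p = 0.136). Its levels at 0, 24, 48, 72 and 96 h were 7.23, 6.90, 6.98, 7.22 and 7.50 in Ubf fl/fl iMEFs and 8.99, 8.82, 9.27, 9.13 and 8.40 in Ubf wt/wt iMEFs. They were 8.69, 8.0, 9.62, 9.13 and 8.60 in Ubf fl/fl MEFs and 9.15, 8.70, 9.61, 10.90 and 11.33 in Ubf wt/wt MEFs. The iMEF lines differed by -1.76 (Ubf fl/fl minus Ubf wt/wt) at 0 h already, and the MEF lines differed by -1.77 at 72 h and -2.73 at 96 h, against -0.47 at 0 h. Lasting differences between 2 lines carry no test here, since there was 1 line for each genotype.

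The higher calls were fewer under some alternatives and more under others, and the arrays of the cell types differed in their spread. The lower quartile of all probe sets was 5.29 to 5.50 on iMEF arrays and 5.24 to 5.31 on MEF arrays, and the interquartile range was 3.06 to 3.54 on iMEF arrays and 3.46 to 3.65 on MEF arrays. Scaling each array to its median moved the median of all genes up by 0.13 (46.1% of all genes higher and 27.1% lower), gave 21 higher and 13 lower collagen genes, and took the calls of Col1a1, Col18a1 and Col4a5 away. Quantile scaling moved it by 0.07 (40.8% and 26.9%), gave 19 higher and 14 lower collagen genes, and took away those of Col18a1, Col4a5 and Col19a1. With the arrays of 0 and 24 h alone, 10 collagen genes were lower and 0 higher. Those 10 were Col12a1, Col6a3, Col3a1, Col8a1, Col14a1, Col6a2, Col4a1, Col6a1, Col11a1 and Col4a2. Without the 96 h arrays 13 were lower and 4 higher. With the 48, 72 and 96 h arrays alone 16 were lower and 17 higher. No share of all genes is set beside these counts from fewer arrays, so they do not set collagen genes apart.

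Change with time was examined next, as the mean of 48, 72 and 96 h minus the mean of 0 and 24 h over both genotypes of a cell type. In iMEFs 1 collagen gene rose and 2 fell. Of all genes, 6.23% passed, 2.47% as higher and 3.77% as lower. The median over the 44 genes was 0.04 and that over all genes 0.00. Col6a3 fell most. Its levels at 0, 24, 48, 72 and 96 h were 8.70, 9.33, 8.94, 8.24 and 7.97 in Ubf fl/fl iMEFs and 9.02, 9.18, 8.98, 8.50 and 7.74 in Ubf wt/wt iMEFs. Both lines were lowest at 96 h, and the change was -0.66 ± 0.10 (limma adjusted p = 0.00291), -0.63 in the Ubf fl/fl line and -0.69 in the Ubf wt/wt line. The call was lost without the 24 h arrays (-0.46, adjusted p = 0.129) and without the 96 h arrays (-0.39, adjusted p = 0.0522).

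Col1a1 fell in iMEFs. Its levels were 12.52, 12.67, 12.47, 12.26 and 12.03 in Ubf fl/fl iMEFs and 12.63, 12.72, 12.54, 12.49 and 12.16 in Ubf wt/wt iMEFs. The 96 h array was the lowest of each line, and the change was -0.31 ± 0.08 (adjusted p = 0.0349). Col20a1, a FACIT gene of embryonic skin and tendon in chick, rose in iMEFs. Its levels were 7.20, 6.97, 7.29, 7.37 and 7.75 in Ubf fl/fl iMEFs and 7.24, 7.09, 7.22, 7.33 and 7.68 in Ubf wt/wt iMEFs, and the change was 0.32 ± 0.09 (adjusted p = 0.0482). The call of Col1a1 was lost in 15 of 27 distinct alternative fits and that of Col20a1 in 19 of 27, with an adjusted p up to 0.321 for Col1a1 and 0.433 for Col20a1. Quantile scaling was among them for Col1a1 (limma adjusted p = 0.103) and median scaling for Col20a1 (0.0832). Col6a3 kept its call under both scalings. The interquartile range of all probe sets at 0, 24, 48, 72 and 96 h was 3.35, 3.54, 3.37, 3.24 and 3.06 in Ubf fl/fl iMEFs. It was 3.20, 3.08, 3.38, 3.22 and 3.11 in Ubf wt/wt iMEFs. The part of array spread in these changes was not tested.

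**Figure D3:**
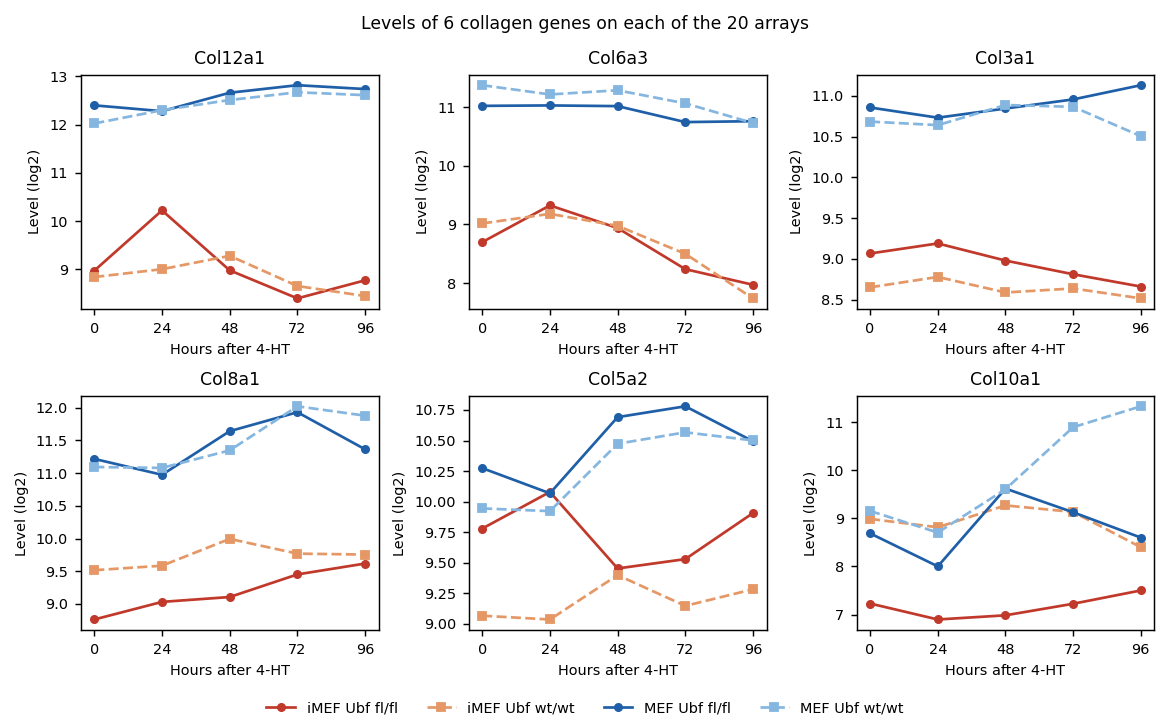
Log2 level of 6 collagen genes at 0, 24, 48, 72 and 96 h post 4-HT in the 4 lines, 1 array per point (iMEFs red and orange, MEFs blue and light blue, Ubf fl/fl solid and Ubf wt/wt dashed). Col6a3 is lowest at 96 h in both iMEF lines, Col12a1 stands out at 10.22 on the 24 h array of Ubf fl/fl iMEFs, and Col10a1 reaches 11.33 in Ubf wt/wt MEFs.

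In MEFs 4 collagen genes rose and 0 fell. Of all genes, 13.4% passed, 5.68% as higher and 7.73% as lower. Without the Ubf fl/fl MEF array at 96 h, 5 more were called as lower, namely Col14a1, Col6a2, Col6a1, Col15a1 and Col5a3, which gave -0.57 to -0.32. The median over the 44 genes was 0.00, as was that over all genes. Col8a1 had levels of 11.22, 10.98, 11.64, 11.93 and 11.36 at 0, 24, 48, 72 and 96 h in Ubf fl/fl MEFs and 11.09, 11.08, 11.35, 12.02 and 11.88 in Ubf wt/wt MEFs. All 3 late arrays of each line lay above both early arrays, and the change was 0.61 ± 0.13 (adjusted p = 0.00799). Col5a2 had 10.27, 10.07, 10.69, 10.78 and 10.49 in Ubf fl/fl MEFs and 9.94, 9.92, 10.47, 10.57 and 10.50 in Ubf wt/wt MEFs. Late and early arrays of a line again did not overlap, and the change was 0.53 ± 0.12 (adjusted p = 0.0116).

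Col4a5, a basement membrane chain, had 7.70, 7.58, 7.68, 8.01 and 7.93 in Ubf fl/fl MEFs and 7.63, 7.50, 7.87, 8.09 and 8.05 in Ubf wt/wt MEFs. The highest level of each line came at 72 h, and the change was 0.33 ± 0.08 (adjusted p = 0.0143). Its neighbour Col4a6 gave 0.10 and did not pass. Col10a1, whose levels are given above, rose by 1.23 ± 0.32 (2.34-fold, adjusted p = 0.0238), with 0.77 in the Ubf fl/fl line and 1.68 in the Ubf wt/wt line. All 4 calls were lost without the 0 h arrays, without the 24 h arrays, without the 72 h arrays and for 96 h minus 0 h. Without the 24 h arrays the only call was a fall of Col14a1 (-0.66), and for 96 h minus 0 h it was a fall of Col6a2 (-0.59).

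The change with time did not pass as different between the cell types for any collagen gene (0 of 44 in limma), where 4.16% of all genes passed (2.42% as higher, 1.74% as lower). At an unadjusted p under 0.05 there were 9 collagen genes, against 2769 of all 15272 genes. The smallest adjusted p was 0.0599, for Col12a1, at -0.92 ± 0.25. The change of Col12a1 was -0.50 in iMEFs and 0.42 in MEFs, and neither passed. Col5a2 gave -0.57 ± 0.17 (adjusted p = 0.0891) and Col6a3 -0.44 ± 0.14 (adjusted p = 0.115). Under median and under quantile scaling the difference for Col12a1 passed (adjusted p = 0.0450 and 0.0307). Leaving out the Ubf wt/wt iMEF array at 48 h or at 24 h gave 2 genes, and without the 24 h array these were Col12a1 (adjusted p = 0.00126) and Col5a2 (adjusted p = 0.0170). This count too has no share of all genes beside it.

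**Figure D4:**
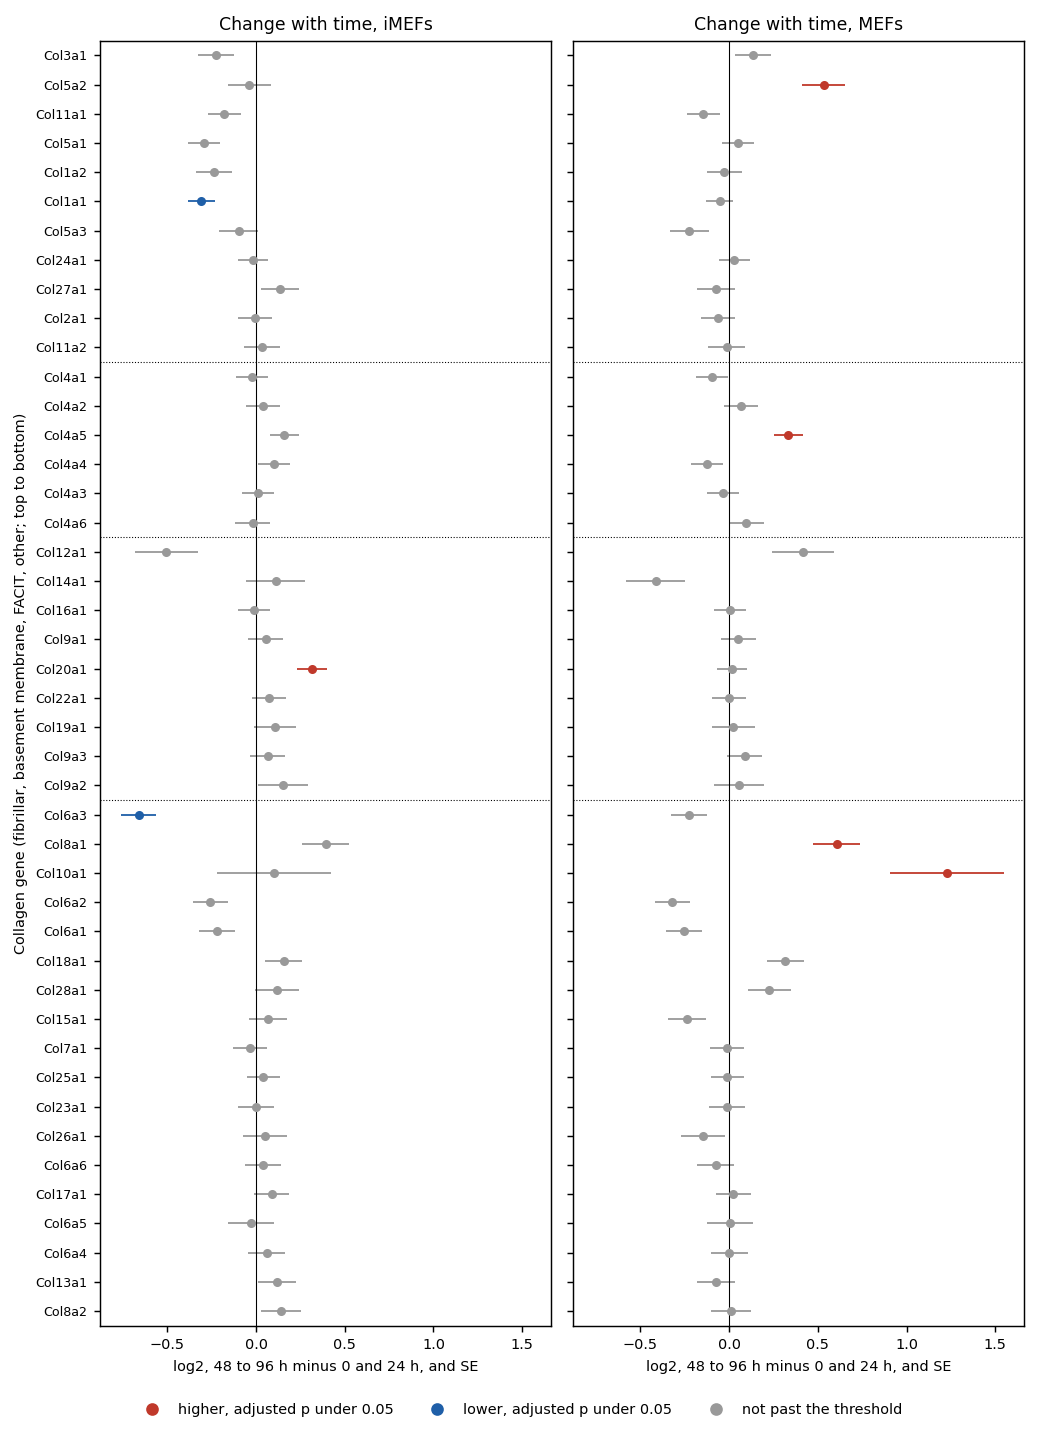
Change in log2 level between 48 to 96 h and 0 to 24 h post 4-HT for each collagen gene (points) with its standard error (bars), in iMEFs (left) and MEFs (right). In iMEFs Col6a3 and Col1a1 are blue (lower late) and Col20a1 is red (higher late). In MEFs Col10a1, Col8a1, Col5a2 and Col4a5 are red.

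The question of the series was what loss of Ubf does to gene expression. Its late effect was taken as the change between early and late times in the Ubf fl/fl line minus the same change in the Ubf wt/wt line. This passed limma's test for 0 of 44 collagen genes in iMEFs, where 0.223% of all genes passed (0.183% as higher, 0.0393% as lower), and for 0 of 44 in MEFs, where 0% passed. At an unadjusted p under 0.05 there were 3 collagen genes in iMEFs and 0 in MEFs, against 3370 and 1052 of all 15272 genes. The median over the 44 genes was 0.13 in iMEFs and 0.14 in MEFs, and that over all genes was -0.04 and 0.06. Values ran from -0.75 to 0.49 in iMEFs and from -0.91 to 0.52 in MEFs. With a median standard error of 0.21 a late effect of the size seen for most collagens was not detectable. The paper describes excision of Ubf and loss of its protein after deriving the immortalized cells, and reports neither separately for primary MEFs. Loss of Ubf in the MEFs is therefore taken here from the design and was not measured.

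In iMEFs the smallest p-values belonged to Col5a2, Col1a2 and Col12a1. Col5a2 had levels of 9.78, 10.08, 9.45, 9.53 and 9.91 at 0, 24, 48, 72 and 96 h in Ubf fl/fl iMEFs and 9.07, 9.04, 9.40, 9.15 and 9.28 in Ubf wt/wt iMEFs. The Ubf fl/fl line was the higher at every time, by 0.71 at 0 h and 0.62 at 96 h, and the late effect was -0.52 ± 0.20 (95% interval -0.96 to -0.09, adjusted p = 0.168). Without the 96 h arrays it passed, at -0.66 (adjusted p = 0.0484). Col1a2 had 11.97, 12.07, 11.80, 11.54 and 11.40 in Ubf fl/fl iMEFs and 11.97, 11.92, 12.06, 11.98 and 11.70 in Ubf wt/wt iMEFs. The lines were alike at 0 h and the Ubf fl/fl line was lower at 48, 72 and 96 h, with a late effect of -0.42 ± 0.16 (interval -0.77 to -0.06, adjusted p = 0.172).

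Col12a1 had 8.97, 10.22, 8.98, 8.40 and 8.77 in Ubf fl/fl iMEFs and 8.84, 9.0, 9.28, 8.65 and 8.45 in Ubf wt/wt iMEFs. The 24 h array of the Ubf fl/fl line was the only one above 9.3, and the late effect was -0.75 ± 0.30 (adjusted p = 0.182). Without the 24 h arrays it was -0.21, and counting 24 h as late turned it to 0.11. Leaving out the 0 h array of the Ubf fl/fl or of the Ubf wt/wt line gave the same fit (-1.30, adjusted p = 0.0459), the only alternative under which it passed.

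**Figure D5:**
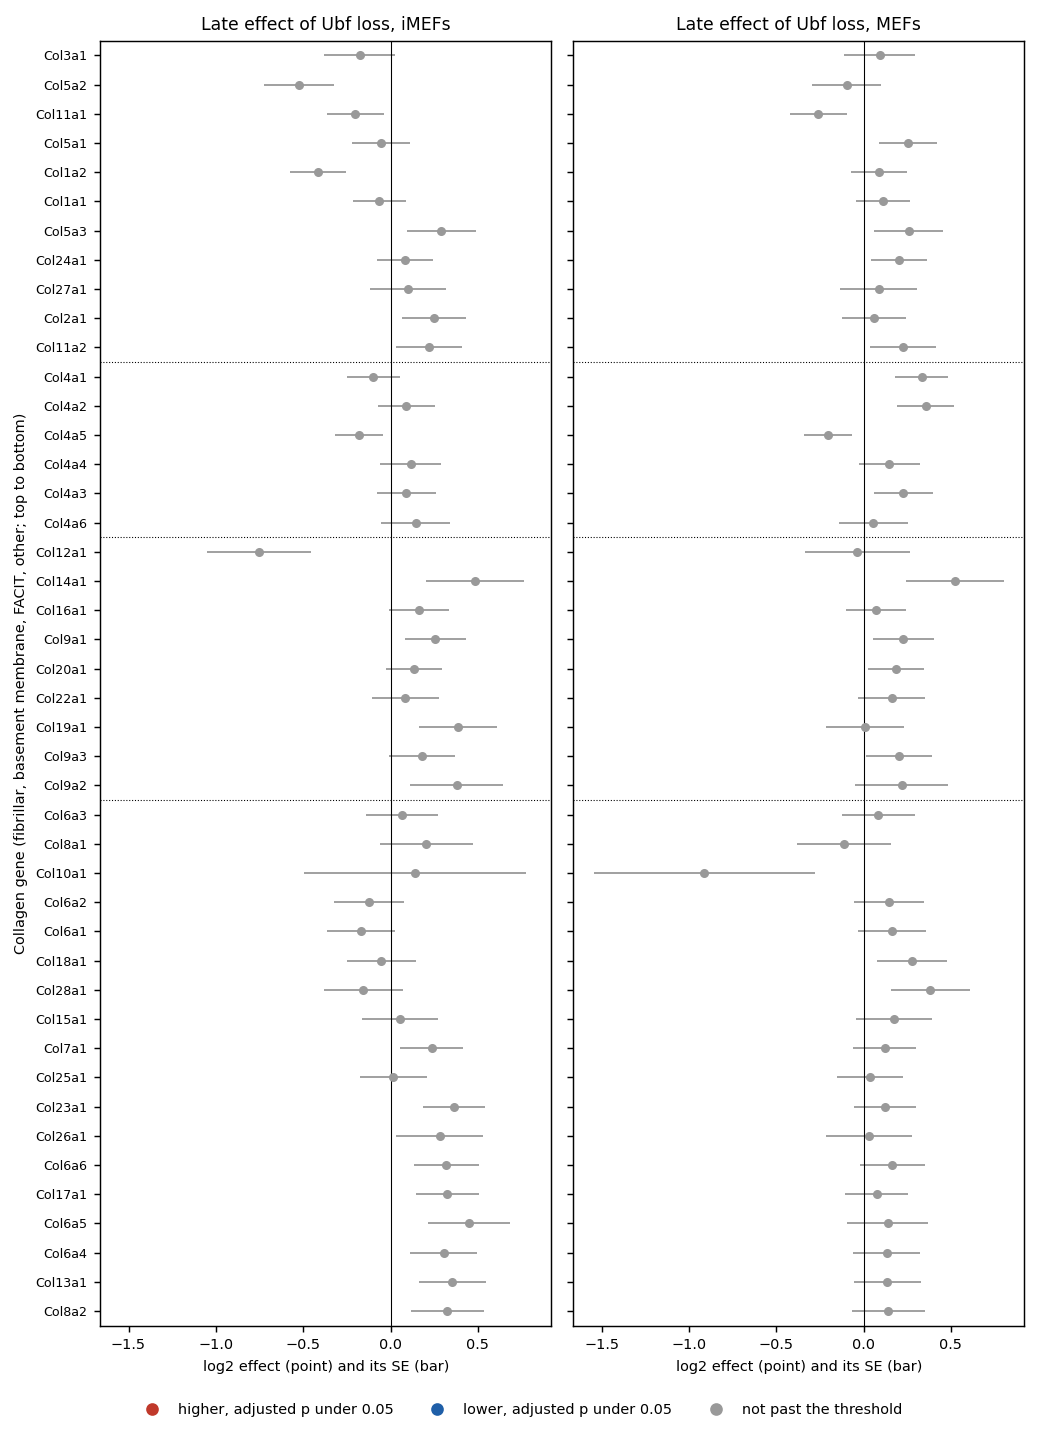
Late effect of Ubf loss on the log2 level of each collagen gene (points) with its standard error (bars), in iMEFs (left) and MEFs (right). All points are grey because 0 of 44 genes passed in either cell type. Col12a1 at -0.75 is the lowest in iMEFs and Col10a1 at -0.91, with the longest bar, is the lowest in MEFs.

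In MEFs the smallest p-values belonged to Col4a2, Col4a1 and Col14a1. Col4a2 had 9.46, 9.46, 9.76, 9.54 and 9.81 in Ubf fl/fl MEFs and 9.85, 9.58, 9.69, 9.56 and 9.57 in Ubf wt/wt MEFs, with a late effect of 0.36 ± 0.16. Col4a1 had 9.39, 9.22, 9.54, 9.23 and 9.36 in Ubf fl/fl MEFs and 9.70, 9.54, 9.43, 9.29 and 9.36 in Ubf wt/wt MEFs, with a late effect of 0.33 ± 0.15. For both genes the Ubf fl/fl line was the lower at 0 and 24 h. Col14a1 had 8.72, 7.96, 8.01, 8.15 and 8.39 in Ubf fl/fl MEFs and 8.39, 8.18, 7.92, 7.62 and 7.29 in Ubf wt/wt MEFs, with a late effect of 0.52 ± 0.28. The lines came apart by 1.10 at 96 h, where the level of the Ubf wt/wt line was at its lowest. All 3 had an adjusted p of 0.718. Col10a1 gave -0.91 ± 0.63 (adjusted p = 0.733), the lowest value in MEFs. The late effect of 18 macrophage markers in the same MEF arrays had a median of 0.61, with 15 positive and 0 passing. In iMEFs 15 of the 18 were positive too, with a median of 0.22. Of 13 fibroblast markers 8 were positive in MEFs (median 0.06), and of 6 smooth muscle and myofibroblast markers 0 (median -0.33). The remaining lists had medians from 0.03 to 0.12, and 59.2% of all genes were positive. The part of any of these cells in the values of the collagen genes was not tested.

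The difference of the late effect between iMEFs and MEFs passed for 0 of 44 collagen genes and for 0% of all genes (1 and 1136 at an unadjusted p under 0.05). The smallest p-values belonged to Col1a2 (-0.51 ± 0.23, adjusted p = 0.669), Col4a1 (-0.43 ± 0.22) and Col12a1 (-0.72 ± 0.42). Their 95% intervals were -1.01 to -0.01, -0.91 to 0.05 and -1.65 to 0.22.

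Genes that make, export, trim, crosslink and bind collagen were taken from lists, of which 55 genes were kept. In iMEFs minus MEFs 34 were lower and 5 higher, with a median of -0.47, where 31.2% of all genes were lower and 35.1% higher with a median of 0.12. Of 14 fibril-associated proteins 12 were lower and 0 higher, and of 14 hydroxylases and glycosylation genes 7 and 0. Of 7 genes of folding and export 5 were lower and 1 higher, of 7 of propeptide processing 4 and 1, of 5 of crosslinking 2 and 1, and of 8 collagen receptors 4 and 2. The small proteoglycan Dcn, which coats type I fibrils, had levels of 6.30, 6.66 and 7.24 in iMEFs (lowest, median and highest) and 11.87, 12.31 and 13.07 in MEFs. It was lower in iMEFs (adjusted p = 0.000641). Lum, a related proteoglycan, had 4.65, 4.89 and 5.41 in iMEFs and 9.39, 10.12 and 11.41 in MEFs. Lum was under the 40th percentile on all 10 iMEF arrays, the related Aspn on 6 and Dcn on 2. Lum thus passed the filter only through the MEF arrays, where it is high. Its call, counted among the 34 lower genes, is no independent support. With those arrays set to their 40th percentile, the means were 51.7-fold lower for Dcn, 15.4-fold for Lum and 14.2-fold for Aspn. These folds carry no error and are not lower bounds, since the 40th percentile is no background floor. Postn, a matricellular protein, gave -4.23 ± 0.25. Dcn, Lum, Postn and Fn1 are also among the fibroblast markers.

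With time, 1 of the 55 rose and 3 fell in iMEFs, where 6.23% of all genes passed, and 5 rose and 3 fell in MEFs, where 13.4% passed. Pcolce2, an enhancer of procollagen C-proteinase, fell in both cell types. The change was -1.15 ± 0.12 in iMEFs (adjusted p = 0.000425). In MEFs it was -0.56 ± 0.12 (adjusted p = 0.00828), but -0.13 without the 24 h arrays (adjusted p = 0.705) and -0.060 for 96 h minus 0 h (adjusted p = 0.986). Also in iMEFs, the matricellular protein gene Thbs2 fell (-0.65 ± 0.14), as did P4ha2 (-0.52 ± 0.12), which encodes a catalytic subunit of a prolyl hydroxylase. The lysyl oxidase relative Loxl3 rose by 0.63 ± 0.12. Over 27 distinct alternative fits the call of Thbs2 was lost in 9, that of P4ha2 in 10 and that of Loxl3 in 5, and its sign turned in 1. In MEFs the largest rises were Prelp at 0.91 ± 0.23, Lum at 0.76 ± 0.13 and Loxl4 at 0.60 ± 0.09, of which the call of Prelp was lost in 8 of 27. The change with time differed between iMEFs and MEFs for 4 of the 55, of which 1 was higher and 3 lower, where 4.16% of all genes passed. The late effect of Ubf loss and its difference between cell types passed for 0 of the 55.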

How the data were processed

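The authors deposited log2 levels for each probe set on each array, made by RMA-sketch normalization of all arrays in Affymetrix Power Tools 1.14.4. No control was subtracted in them. The paper's detection filter was not used here. The methods name the Mouse Gene 2.0 ST array, whereas genes were named here through the platform table for Mouse Gene 1.0 ST. It gives 21789 of the 35556 probe sets 1 symbol. A gene was kept when its level lay over the 40th percentile of the array on at least 2 arrays. Genes were tested with limma 3.58.1 in R 4.3.3, adjusted by Benjamini-Hochberg over the 15272 genes kept, with a threshold of 0.05. The late effect and its difference used 1 model with terms for line, time within cell type and genotype by late time (6 residual degrees of freedom). The time change used line and time within cell type (8), and iMEFs minus MEFs the 4 line means (2). The tests were checked on simulated data. Figures were drawn in Python 3.11.15 with matplotlib 3.10.9.

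Named were the genes past the threshold in each comparison (at most 5 per direction by size), otherwise the 3 with the smallest p, and the genes with the widest range in each class, with other calls given by value. At most 4 genes of the lists were named per comparison. The members and lists were chosen with earlier results of these data known. Alternatives were other scaling, filters, the mean of probe sets, trend and robust settings, leaving out each array or time, and other contrasts. Gene neighbours come from the RefSeq table of GRCm38.p6. Col21a1 was not analysed here. In the marker lists, Cdh5 and Emcn (endothelial), Myf5 (muscle) and Nefl (neural) were under the 40th percentile on all arrays.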

Additional observations from a re-analysis of the deposited data

Results flagged for a closer look

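The change with time differed between iMEFs and MEFs, tested as an interaction in limma, for 4 of 55 genes on the collagen-related lists and none of the 44 collagens, where 4.16% of all genes passed. They were the fibril-associated Thbs2, the hydroxylase subunit P4ha2 and the crosslinking enzymes Loxl3 and Loxl4. Thbs2 gave -0.98 ± 0.20 (adjusted p = 0.0174), with a change of -1.01 in Ubf fl/fl iMEFs and -0.29 in Ubf wt/wt iMEFs, against 0.39 in Ubf fl/fl MEFs and 0.28 in Ubf wt/wt MEFs. P4ha2 gave -0.76 ± 0.17 (adjusted p = 0.0275), with -0.62 and -0.42 in the Ubf fl/fl and Ubf wt/wt iMEFs and 0.45 and 0.04 in the MEFs of the same genotypes. Loxl4 gave -0.75 ± 0.12 (adjusted p = 0.00389), with -0.15 and -0.14 in iMEFs and 0.59 and 0.62 in MEFs. Loxl3 gave 0.69 ± 0.17 (adjusted p = 0.0408), with 0.44 and 0.82 in iMEFs and -0.11 and -0.02 in MEFs. The adjusted p ran up to 0.176 for Thbs2, 0.169 for P4ha2, 0.146 for Loxl4 and 0.966 for Loxl3 over the alternatives. The call of Loxl4 was lost without the 0 h arrays and in no other of 32 alternative fits. That of Thbs2 was lost in 7, that of P4ha2 in 15 and that of Loxl3 in 20, besides 1 in which the sign of Loxl3 turned.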

How the results depend on the processing

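Replicate cultures could not be paired because the labels carry no replicate numbers and each line has 1 array per time. The late effect compares the 2 genotypes of a cell type at the same time, and the time change is taken within lines. Means over the times of each line were used for iMEFs minus MEFs. With genotype added, which matches the lines by genotype and leaves 1 residual degree of freedom, iMEFs minus MEFs gave 30 genes, 13 higher and 17 lower. In iMEFs minus MEFs the count of 28 collagen genes was 10 with the 0 and 24 h arrays alone and ran from 17 (without the 96 h arrays) to 32 when a time or an array was left out. For the change with time in iMEFs (3 genes) it was 0 without the 24 h arrays and 0 to 5 over single times and arrays. It was 0 without the 96 h arrays, 5 without the Ubf wt/wt iMEF array at 24 h, and 1 without the 0 h or the 72 h arrays. In MEFs (4 genes) it was 1 without the 24 h arrays and 1 for 96 h minus 0 h, both of them lower and not among the 4, and 0 to 9 over single times and arrays, with 0 without the 0 h or the 72 h arrays and 9 without the Ubf fl/fl MEF array at 96 h (4 higher, 5 lower). The difference of these changes (0 genes) gave 1 gene under median and 1 under quantile scaling, and 0 to 2. The late effect in iMEFs gave 0 to 1, and those in MEFs and of the difference 0 to 0. No share of all genes under the same alternative is set beside the counts of this paragraph, so they do not set collagen genes apart.

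Signs turned for Col12a1 (late effect in iMEFs 0.11 with 24 h counted as late, difference of the late effect from -1.46 to 0.025 over single times and arrays left out, 0.025 being the value without 24 h) and Loxl3 (96 h minus 0 h, change in iMEFs -0.026 and difference -0.037). The cause was not tested. With identical fits counted once, of 1941 values of named genes 1676 kept sign and side of the threshold, 251 lost the call, 10 gained it and 4 turned. The calls of Col12a1, Col6a3, Col3a1, Col8a1, Col14a1, Col6a2, Col4a1, Col6a1, Col11a1 and Col4a2 in iMEFs minus MEFs held in all 35 alternatives. No detection calls were used, and the 40th percentile is no background floor. The epithelial marker Cdh1, the muscle marker Ckm and the glial marker Sox10 lay over it on all 20 arrays, so a collagen gene over it need not be expressed.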
